A study of Saccharomyces cerevisiae BY4741 with 8 samples.

Results

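The genes described here are 46 nuclear genes of *Saccharomyces cerevisiae* whose products carry out mitochondrial respiration: 11 genes of the tricarboxylic acid (TCA) cycle and citrate synthesis, 4 subunits of succinate dehydrogenase (complex II), the internal NADH dehydrogenase *NDI1*, 9 subunits of the cytochrome bc1 complex (complex III), both cytochrome c genes, 9 subunits of cytochrome c oxidase (complex IV) and 10 subunits of ATP synthase. They were chosen by function, from a list of open reading frame names, with earlier results of these data known. All 46 had a spot among the 6388 genes on the arrays. The TCA cycle oxidizes acetyl groups in the mitochondrial matrix and passes electrons to NADH and succinate dehydrogenase. Budding yeast lacks the large proton-pumping NADH dehydrogenase of animals and uses a single-subunit enzyme instead, after which electrons pass through ubiquinone, complex III, cytochrome c and complex IV to oxygen, and ATP synthase uses the resulting proton gradient. In glucose medium yeast mainly ferments, and most genes of respiration are partly repressed. The Hap activator complex, with Hap4 as its regulated subunit, raises their transcription when glucose is used up, and Hap1 links several of them to heme and oxygen.

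KP1019 is a ruthenium complex studied as an anticancer drug, and each array set treated against untreated cells of 1 culture. Wild-type yeast, labelled BY4741 (*MAT*a *his3*Δ1 *leu2*Δ0 *met15*Δ0 *ura3*Δ0), was grown at 30°C in synthetic complete medium with glucose to early log phase and exposed to 80 or 40 μg/ml KP1019 for 3 h, and the untreated portion of each culture served as its control. Each dose had 2 biological replicates. Every replicate went on 2 spotted arrays with the Cy3 and Cy5 dyes exchanged between treated and untreated cDNA, which made 8 arrays, and a spot gave a log2 ratio of treated over untreated intensity. A log2 ratio of -1 is a 2-fold lower level in treated cells. Ratios were normalized within each array, so a value says how a transcript stood relative to the other transcripts of that culture, and less of a transcript per cell and fewer cells carrying it cannot be told apart.

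The arrays differed in quality and, between doses, in the strain they showed. Median intensities in the treated channel ran from 293.7 to 3736, and 67.5% to 98.5% of the gene spots in that channel were above the blank spots, that is, above their median plus 3 median absolute deviations. Of the 46 genes, 45 were above the blanks in both channels of all 8 arrays, and *RIP1* missed this in the treated channel of 1 array of 40 μg/ml. The spread of log2 ratios over all genes (median absolute deviation, MAD) was 0.333 and 0.32 in the replicates of 80 μg/ml, against 0.679 in replicate 1 and 0.389 in replicate 2 of 40 μg/ml. On the arrays of 80 μg/ml the mating-type genes matched the label: in untreated cells *MFA1*, the a-factor gene, ranked between the percentiles 98 and 100 of intensity and *MFALPHA1*, the alpha-factor gene, between 4.74 and 9.66. On the arrays of 40 μg/ml they went against it, with *MFA1* between the percentiles 20.7 and 30.8 and *MFALPHA1* between 81.3 and 86.4. *MFA2* and *BAR1*, further genes of a cells, ranked between 8.59 and 31.1 and between 13.6 and 15.6 there. *STE2*, the pheromone receptor gene of a cells, was at 97.5 on the array of replicate 1 with treated cDNA in Cy5. On the rest of these arrays it was between 12.4 and 16.1. Of the genes deleted in BY4741, *URA3* was above the blanks on 0 of 8 arrays in the treated channel and 1 in the untreated channel, and *LEU2* on 3 and 5. *MET15* and *HIS3* were above them in both channels of all 8 arrays, though *his3*Δ1 is a partial deletion. *MET15* thus went against the labelled *met15*Δ0 at both doses, with percentiles from 77.5 to 94.3 in untreated cells. The cause was not tested. The dose therefore cannot be told apart from a difference in strain or array series, and results at 80 μg/ml are also given from a fit without the arrays of 40 μg/ml.

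At 80 μg/ml none of the 46 genes passed the test used. Averages of the 2 replicates were tested against 0 with limma, with 1 estimate of the spread for both doses, and p-values were adjusted over all 6388 genes (Benjamini-Hochberg, adjusted p under 0.05). By this test 0 of the 46 genes were higher and 0 lower, beside 2.11% and 1.41% of all genes. At an unadjusted p under 0.05, 0 were higher and 3 were lower (*NDI1*, *QCR6* and *COX8*), beside 10.2% and 8.23% of all genes. The 80 μg/ml arrays were also fitted without those of 40 μg/ml, which have the wider spread. In that fit 9 of the 46 genes passed the adjusted p, all lower (19.6%), beside 10.0% of all genes lower and 12.1% higher. The 9 genes were *SDH3*, *NDI1*, *QCR6*, *QCR10*, *RIP1*, *COX6*, *COX8*, *ATP2* and *ATP20*. The same 9 genes passed when either replicate of 40 μg/ml was left out, since a lone replicate adds nothing to the estimate of the spread. With all arrays kept but scaled to a common spread, 8 genes passed, again all lower: *COX4* and the 9 above without *QCR10* and *RIP1*. These are 17.4% of the genes. With this scaling 694 of all 6388 genes were lower and 806 higher, or 23.5% in either direction.

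At 40 μg/ml 4 of the 46 genes passed the test. *QCR7* rose, which is 1 of 46 beside 13.0% of all genes, and *CIT2*, *ATP2* and *ATP3* fell, which is 3 of 46 beside 10.3%. The share of genes called was therefore below that over all genes in both directions. Without replicate 1 of 40 μg/ml, the calls were *MDH1*, *QCR7* and *CYC7* higher (9.64% of all genes) and *CIT2* lower (7.26%). Without replicate 2, *QCR7* was higher (24.1% of all genes) and 27 of the 46 genes were lower (23.8%). At an unadjusted p under 0.05 the counts were 3 higher and 13 lower, beside 20.2% and 18.2% of all genes. When the 40 μg/ml arrays were fitted by themselves, *QCR7* was higher (11.7% of all genes) and 8 of the 46 genes (17.4%) were lower, beside 8.89% of all genes. That fit gave every gene the same spread, so disagreement between the replicates of a gene did not count against it. *ATP14*, for example, passed with -1.36 in replicate 1 and -0.12 in replicate 2. *CIT2* and *QCR7* passed whichever replicate of 40 μg/ml was left out, whereas *ATP2* and *ATP3* did not pass without replicate 1. The criteria of the methods of the study were applied to the ratios normalized here: at least 3.5-fold in both replicates, with limits on the disagreement of the dye pair. No gene of the 46 met them at either dose (over all genes, 15 met them at 80 μg/ml, against 24 at 40 μg/ml). With the ratios deposited by the authors, again 0 of the 46 met them, and over all genes 19 and 27 did.

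**Figure D1:**
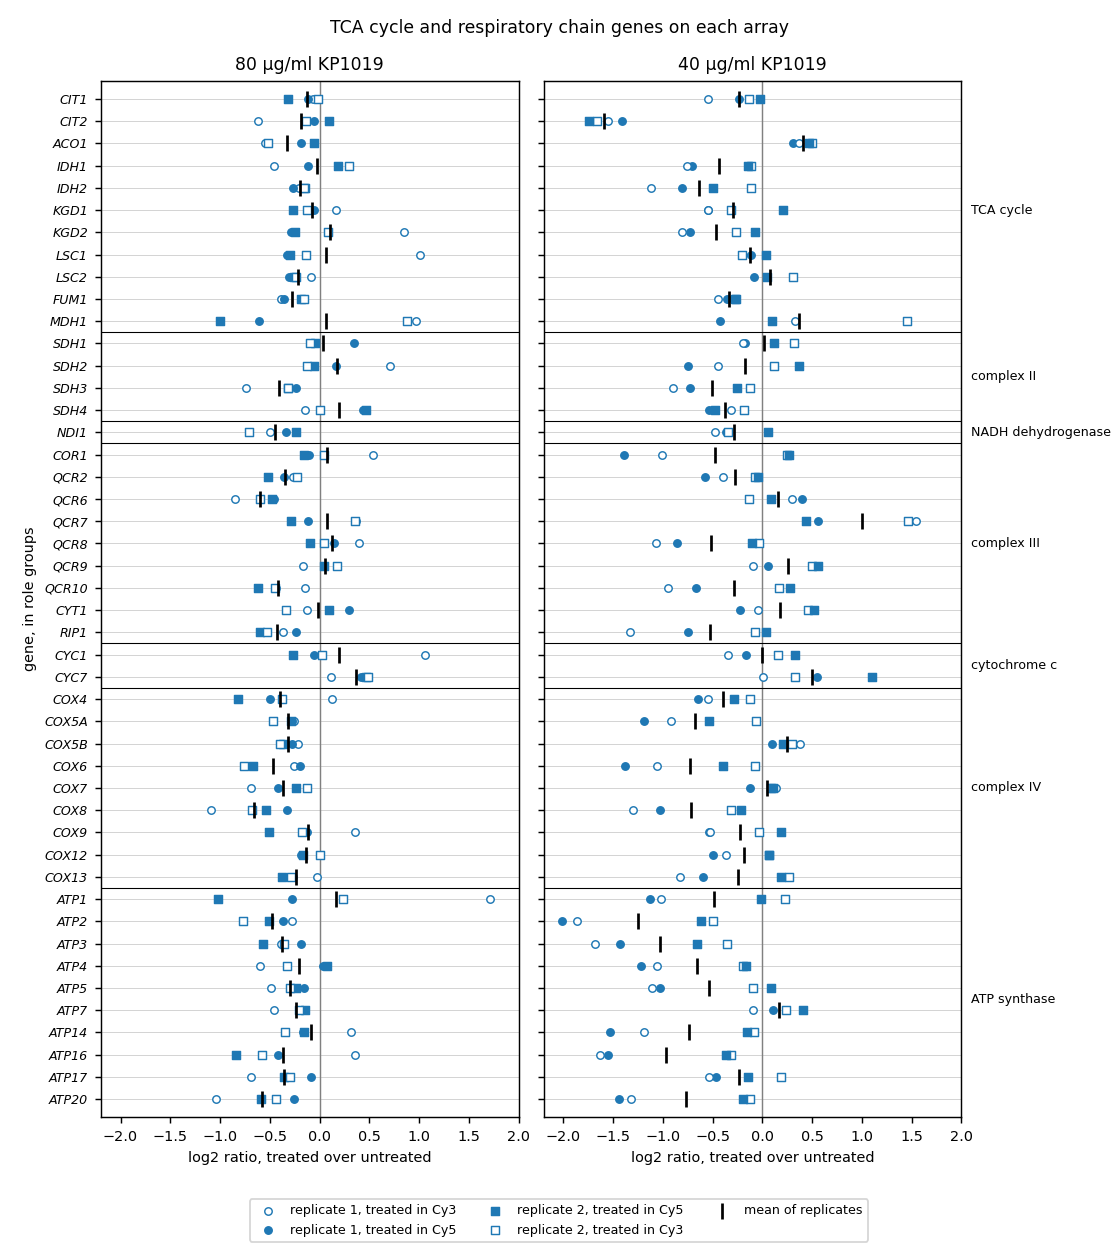
Log2 ratio of treated over untreated for each of the 46 genes (rows, in role groups) on every array, at 80 μg/ml (left) and 40 μg/ml (right). Circles are replicate 1 and squares replicate 2, filled where treated cDNA was in Cy5 and open where it was in Cy3, and the black bar is the mean of the replicates. On the right, the circles of the ATP synthase genes lie mostly far left of the squares.

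Small shifts below 0 were common among these genes, though not only among them. The mean log2 ratio was below 0 for 33 of the 46 genes (71.7%) at 80 μg/ml, beside 50.3% of all genes, and for 34 (73.9%) at 40 μg/ml, beside 51.1%. The median of the 46 means was -0.21 at 80 μg/ml and -0.30 at 40 μg/ml. The median over all genes was -0.0026 at 80 μg/ml and -0.01 at 40 μg/ml. At 80 μg/ml the medians of the replicates were -0.21 and -0.23, and all 4 arrays gave medians between -0.27 and -0.18. At 40 μg/ml the replicates stood apart, with a median of -0.57 in replicate 1 and -0.04 in replicate 2, so the median at this dose rested on replicate 1. The replicates of 80 μg/ml had opposite signs for 14 of the 46 genes, and those of 40 μg/ml for 15. None of these genes passed the test at that dose. Values below 0 on all 4 arrays of a dose were found for 23 of 46 genes (50%) at 80 μg/ml, beside 22.0% of all genes, and for 20 (43.5%) at 40 μg/ml, beside 24.5%. Values above 0 on all 4 arrays were found for 1 gene at 80 μg/ml (22.9% of all genes) and for 4 at 40 μg/ml (25.0%).

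Over all 8 arrays, 11 of the 46 genes (23.9%) had every ratio below 0, beside 9.78% of all genes. These were *CIT1*, *IDH2*, *FUM1*, *SDH3*, *QCR2*, *COX5A*, *COX6*, *COX8*, *ATP2*, *ATP3* and *ATP20*, so each part of the pathway except cytochrome c and *NDI1* contributed at least 1 gene. Only *CYC7* had every ratio above 0, beside 10.4% of all genes. These counts describe the genes as a list, and the arrays of a dye pair share their RNA.

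**Figure D2:**
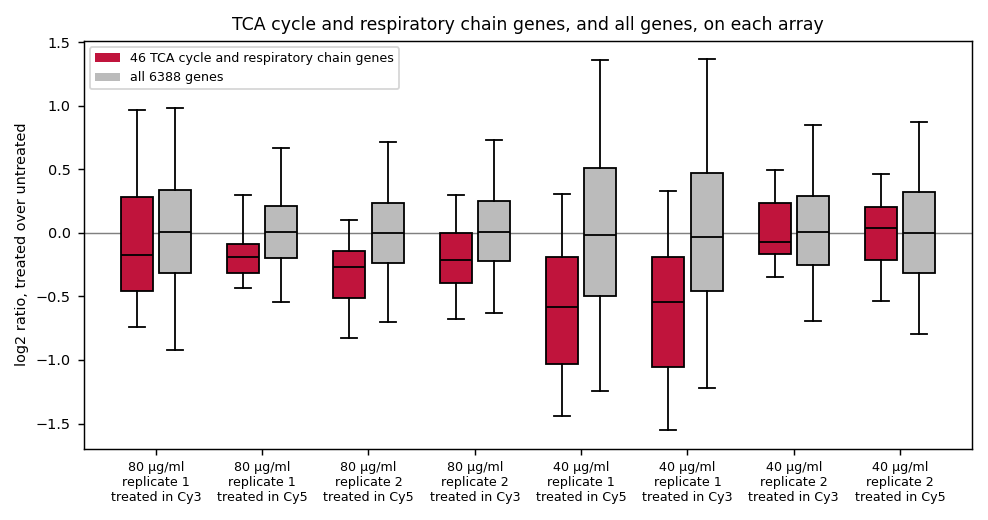
Distribution of log2 ratios of treated over untreated on each array for the 46 TCA cycle and respiratory chain genes (red) and all 6388 genes (grey). Boxes span the quartiles with the median as a line, and whiskers span the central 90% of the genes. The red medians lie between -0.27 and -0.18 on the arrays of 80 μg/ml, near -0.57 in replicate 1 of 40 μg/ml and near 0 in its replicate 2.

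Among the TCA cycle genes, *CIT2* (YCR005C) had the clearest change. It encodes the peroxisomal citrate synthase of the glyoxylate cycle and is the standard reporter of retrograde signalling, by which cells with impaired mitochondria raise genes that supply glutamate precursors. The log2 ratio of *CIT2* at 80 μg/ml was -0.62 with treated cDNA in Cy3 and -0.06 with it in Cy5 in replicate 1, and -0.14 and 0.09 in replicate 2. The 40 μg/ml arrays gave -1.55 in Cy3 and -1.41 in Cy5 in replicate 1, and -1.67 and -1.74 in replicate 2. All 4 arrays of 40 μg/ml lay below all 4 of 80 μg/ml, without overlap. Mean log2 ratios were -0.18 ± 0.22 at 80 μg/ml (SD, n = 2 biological replicates, limma adjusted p = 0.66) and -1.59 ± 0.16 at 40 μg/ml (SD, n = 2, limma adjusted p = 0.0028), a 3.02-fold lower level at 40 μg/ml. Its mean at 40 μg/ml ranked 28 from the lowest of the 6388 genes, and the call held in all 12 settings in which it was refitted. These settings are not all distinct, since leaving out either replicate of 80 μg/ml gives the same fit as 40 μg/ml alone.

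*CIT1* (YNR001C), the mitochondrial citrate synthase of the cycle itself, averaged -0.13 at 80 μg/ml and -0.23 at 40 μg/ml, with every array below 0 and neither dose past the threshold. The sequences of the spots were not used, so cross-hybridization between the related citrate synthase genes was not tested. *ACO1* (YLR304C), aconitase, which converts citrate to isocitrate, differed in sign between doses on every array. Its 80 μg/ml values were -0.54 and -0.19 in replicate 1 and -0.52 and -0.06 in replicate 2 (Cy3 before Cy5). Its 40 μg/ml values were 0.36 and 0.31 in replicate 1 and 0.50 and 0.46 in replicate 2. The means, -0.33 at 80 μg/ml and 0.41 at 40 μg/ml, did not pass the test at either dose (limma adjusted p = 0.33 and 0.10).

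The NAD-dependent isocitrate dehydrogenase is built of Idh1 and Idh2. *IDH2* (YOR136W) was between -0.26 and -0.14 on the arrays of 80 μg/ml and between -1.12 and -0.12 on those of 40 μg/ml, with a mean of -0.63 at 40 μg/ml that narrowly missed the threshold (limma adjusted p = 0.053). *IDH1* averaged -0.02 at 80 μg/ml and -0.43 at 40 μg/ml. *KGD1* and *KGD2*, subunits of alpha-ketoglutarate dehydrogenase, averaged -0.07 and 0.10 at 80 μg/ml and -0.30 and -0.47 at 40 μg/ml. *LSC1* and *LSC2*, the subunits of succinyl-CoA ligase, had means between -0.22 and 0.08 at both doses. *FUM1*, fumarase, was low but even, at -0.27 at 80 μg/ml and -0.34 at 40 μg/ml, with all 8 arrays between -0.45 and -0.15. None of these genes passed the test.

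*MDH1* (YKL085W), the mitochondrial malate dehydrogenase that closes the cycle, differed by dye more than by dose. It was at 0.97 and 0.88 for 80 μg/ml on the arrays with treated cDNA in Cy3, and -0.60 and -0.998 on those with treated cDNA in Cy5. For 40 μg/ml it was at 0.33 and 1.46 in Cy3, and -0.42 and 0.10 in Cy5. The averages over the dye pairs, 0.06 at 80 μg/ml and 0.36 at 40 μg/ml, were smaller than the gap between the dyes (1.73 and 1.06 on the log2 scale), and neither passed the test. *ATP1*, the alpha subunit of ATP synthase, showed such a gap at 80 μg/ml as well, where its values of 1.71 and 0.24 in Cy3 stood against -0.27 and -1.02 in Cy5.

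The 4 subunits of complex II, which oxidizes succinate to fumarate, did not move together. The catalytic flavoprotein gene *SDH1* averaged 0.03 at 80 μg/ml and 0.01 at 40 μg/ml. The iron-sulfur subunit gene *SDH2* averaged 0.17 and -0.18 at these doses. Of the membrane anchor genes, *SDH4* averaged 0.19 at 80 μg/ml and -0.38 at 40 μg/ml. *SDH3* (YKL141W), the other anchor gene, was below 0 on all 8 arrays. It was -0.74 and -0.24 in replicate 1 and -0.32 and -0.31 in replicate 2 at 80 μg/ml, and -0.90 and -0.73 in replicate 1 and -0.13 and -0.26 in replicate 2 at 40 μg/ml (Cy3 before Cy5). Its means, -0.40 at 80 μg/ml and -0.50 at 40 μg/ml, did not pass (limma adjusted p = 0.33 and 0.10), and at 80 μg/ml it passed without the 40 μg/ml arrays (adjusted p = 0.040) and with arrays scaled (adjusted p = 0.042).

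*NDI1* (YML120C) encodes the enzyme that takes electrons from matrix NADH. At 80 μg/ml it was -0.50 and -0.33 in replicate 1 and -0.71 and -0.23 in replicate 2, and at 40 μg/ml it was -0.48 and -0.37 in replicate 1 and -0.35 and 0.05 in replicate 2. It was thus below 0 on 7 of 8 arrays, and the ranges of the doses overlapped. The means were -0.44 at 80 μg/ml (limma adjusted p = 0.21, and 0.024 without the 40 μg/ml arrays) and -0.29 at 40 μg/ml (adjusted p = 0.24).

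In complex III, which passes electrons from ubiquinol to cytochrome c, *QCR7* (YDR529C) was the only gene of the 46 that rose at 40 μg/ml. It encodes a small subunit that faces the matrix. The log2 ratio of *QCR7* at 80 μg/ml was 0.36 in Cy3 and -0.12 in Cy5 in replicate 1, and 0.35 and -0.28 in replicate 2. The 40 μg/ml arrays gave 1.54 in Cy3 and 0.56 in Cy5 in replicate 1, and 1.46 and 0.44 in replicate 2. All 4 arrays of 40 μg/ml lay above all 4 of 80 μg/ml, and at both doses the ratio was higher where treated cDNA was in Cy3. The dye pairs gave close means in the replicates, for an average of 0.08 ± 0.06 at 80 μg/ml (SD, n = 2, limma adjusted p = 0.86) and 1.00 ± 0.07 at 40 μg/ml (SD, n = 2, limma adjusted p = 0.0086), a 2.00-fold higher level at 40 μg/ml. The gap between the dyes, 1.00 at 40 μg/ml, was as large as the mean itself.

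The other subunits of complex III did not pass at either dose and spread to both sides of 0. *QCR6* (YFR033C), the acidic hinge subunit gene, was the lowest of them at 80 μg/ml, with -0.84 and -0.46 in replicate 1 and -0.60 and -0.48 in replicate 2. On the 40 μg/ml arrays it was 0.30 and 0.40 in replicate 1 and -0.14 and 0.08 in replicate 2. The arrays of 80 μg/ml all lay below those of 40 μg/ml, with means of -0.59 (limma adjusted p = 0.11, and 0.0047 without the 40 μg/ml arrays) and 0.16 (adjusted p = 0.53).

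*RIP1* (YEL024W), the Rieske iron-sulfur protein gene, averaged -0.43 at 80 μg/ml, with arrays between -0.60 and -0.24, and -0.53 at 40 μg/ml, where replicate 1 gave -1.34 and -0.75 and replicate 2 gave -0.08 and 0.04. *QCR10*, a small peripheral subunit gene, averaged -0.41 at 80 μg/ml and -0.29 at 40 μg/ml, where its replicates had opposite signs (-0.81 and 0.23). Both passed at 80 μg/ml when the 40 μg/ml arrays were left out of the estimate of the spread (adjusted p = 0.032 for *RIP1* and 0.039 for *QCR10*). The core protein genes *COR1* and *QCR2* averaged 0.08 and -0.34 at 80 μg/ml and -0.47 and -0.27 at 40 μg/ml, where *COR1* was -1.20 in replicate 1 and 0.26 in replicate 2. *CYT1*, the cytochrome c1 gene, averaged -0.01 at 80 μg/ml and 0.18 at 40 μg/ml. *QCR8* and *QCR9*, further small subunit genes, averaged 0.12 and 0.06 at 80 μg/ml and -0.52 and 0.26 at 40 μg/ml.

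Yeast has a pair of cytochrome c genes. *CYC1* (YJR048W) encodes iso-1-cytochrome c, the main form in aerobic cells, and *CYC7* (YEL039C) encodes iso-2-cytochrome c, which is favoured at low oxygen or heme. *CYC7* was the 1 gene of the 46 with a positive ratio on all 8 arrays. It was 0.11 and 0.42 in replicate 1 and 0.49 and 0.47 in replicate 2 at 80 μg/ml, and 0.01 and 0.55 in replicate 1 and 0.32 and 1.10 in replicate 2 at 40 μg/ml (Cy3 before Cy5). The means of 0.37 ± 0.15 at 80 μg/ml, the highest of the 46 genes at that dose, and 0.49 ± 0.31 at 40 μg/ml (SD, n = 2 each) did not pass the test (limma adjusted p = 0.33 and 0.086). *CYC1* had no common direction. Its ratios at 80 μg/ml were 1.06 and -0.05 in replicate 1 and 0.02 and -0.27 in replicate 2, and at 40 μg/ml they were -0.34 and -0.17 in replicate 1 and 0.15 and 0.33 in replicate 2. Its means were 0.19 at 80 μg/ml and -0.01 at 40 μg/ml.

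Complex IV reduces oxygen, and its nuclear genes lay on 1 side at 80 μg/ml, where all 9 had means below 0, with a median of -0.32 and a range from -0.66 to -0.11. None passed the test. Of the 9 genes, 7 were below 0 at 40 μg/ml, with a median of -0.60 in replicate 1 and 0.06 in replicate 2. *COX8* (YLR395C), the gene of a small structural subunit, had the lowest mean of the 46 genes at 80 μg/ml. It was -1.09 and -0.32 in replicate 1 and -0.68 and -0.54 in replicate 2 at 80 μg/ml, and -1.30 and -1.03 in replicate 1 and -0.32 and -0.21 in replicate 2 at 40 μg/ml. Every array was below 0, and the doses overlapped. The means were -0.66 ± 0.07 at 80 μg/ml (SD, n = 2, limma adjusted p = 0.18, and 0.0024 without the 40 μg/ml arrays) and -0.72 ± 0.64 at 40 μg/ml (SD, n = 2, adjusted p = 0.057).

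Subunit V of complex IV exists in an aerobic form, from *COX5A* (YNL052W), and a hypoxic form, from *COX5B* (YIL111W), and Cox5a and Cox5b replace each other in the enzyme. In the 80 μg/ml arrays *COX5A* was -0.25 and -0.27 in replicate 1 and -0.46 and -0.29 in replicate 2, and *COX5B* was -0.21 and -0.28 in replicate 1 and -0.40 and -0.37 in replicate 2. Both isoform genes averaged -0.32 at this dose. In the 40 μg/ml arrays *COX5A* was -0.92 and -1.19 in replicate 1 and -0.07 and -0.53 in replicate 2, whereas *COX5B* was 0.38 and 0.09 in replicate 1 and 0.30 and 0.21 in replicate 2. *COX5A* was thus below *COX5B* on each array of 40 μg/ml, with means of -0.68 for *COX5A* (limma adjusted p = 0.053) and 0.24 for *COX5B* (adjusted p = 0.30).

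Among the remaining subunits, *COX6* was -0.26 and -0.19 in replicate 1 and -0.76 and -0.67 in replicate 2 at 80 μg/ml, and -1.06 and -1.39 in replicate 1 and -0.07 and -0.39 in replicate 2 at 40 μg/ml. Its means, -0.47 at 80 μg/ml and -0.73 at 40 μg/ml, missed the threshold (limma adjusted p = 0.38 and 0.076). Each dose passed when fitted by itself (adjusted p = 0.031 and 0.036). The fit of 40 μg/ml by itself did not weigh the gap between the *COX6* replicates (-1.22 and -0.23). *COX4* averaged -0.39 at 80 μg/ml and -0.40 at 40 μg/ml. *COX7*, *COX9*, *COX12* and *COX13*, genes of further small subunits, averaged between -0.37 and -0.11 at 80 μg/ml and between -0.24 and 0.05 at 40 μg/ml.

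The ATP synthase genes gave the lowest group median at 40 μg/ml. Of the 10 genes, 9 had means below 0 at each dose, the exceptions being *ATP1* at 80 μg/ml and *ATP7* at 40 μg/ml. The group median was -0.33 at 80 μg/ml (-0.29 in replicate 1 and -0.36 in replicate 2) and -0.70 at 40 μg/ml (-1.25 in replicate 1 and -0.14 in replicate 2). *ATP2* (YJR121W) and *ATP3* (YBR039W), which encode the catalytic beta subunit and the gamma subunit of the rotating stalk, fell at 40 μg/ml. *ATP2* was -0.27 and -0.37 in replicate 1 and -0.77 and -0.51 in replicate 2 at 80 μg/ml, and -1.86 and -2.01 in replicate 1 and -0.50 and -0.62 in replicate 2 at 40 μg/ml. Replicate 1 of 40 μg/ml thus stood well below all other arrays, while its replicate 2 lay within the range of 80 μg/ml. Mean log2 ratios were -0.48 ± 0.22 at 80 μg/ml (SD, n = 2, limma adjusted p = 0.46, and 0.021 without the 40 μg/ml arrays) and -1.25 ± 0.97 at 40 μg/ml (SD, n = 2, adjusted p = 0.026), a 2.37-fold lower level at 40 μg/ml. Without replicate 1 of 40 μg/ml the value of *ATP2* was -0.56 and did not pass (adjusted p = 0.061).

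*ATP3* gave a like pattern. At 80 μg/ml it was -0.39 and -0.19 in replicate 1 and -0.36 and -0.57 in replicate 2, and at 40 μg/ml it was -1.69 and -1.44 in replicate 1 and -0.36 and -0.65 in replicate 2. Again only the arrays of replicate 1 of 40 μg/ml stood apart. The means were -0.38 ± 0.12 at 80 μg/ml (SD, n = 2, limma adjusted p = 0.49) and -1.03 ± 0.75 at 40 μg/ml (SD, n = 2, adjusted p = 0.026), a 2.05-fold lower level at 40 μg/ml. Without replicate 1 of 40 μg/ml the value of *ATP3* was -0.51 and did not pass (adjusted p = 0.078).

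The other ATP synthase genes did not pass at either dose. *ATP16* (YDL004W), the delta subunit gene of the central stalk, came nearest at 40 μg/ml, with a mean of -0.97 (limma adjusted p = 0.054). It was 0.36 and -0.42 in replicate 1 and -0.58 and -0.84 in replicate 2 at 80 μg/ml, and -1.64 and -1.55 in replicate 1 and -0.32 and -0.36 in replicate 2 at 40 μg/ml. *ATP20* (YPR020W), the gene of subunit g that helps the enzyme form dimers, was -1.04 and -0.25 in replicate 1 and -0.44 and -0.59 in replicate 2 at 80 μg/ml, and -1.32 and -1.44 in replicate 1 and -0.12 and -0.20 in replicate 2 at 40 μg/ml. Its means were -0.58 at 80 μg/ml (limma adjusted p = 0.31, and 0.0055 without the 40 μg/ml arrays) and -0.77 at 40 μg/ml (adjusted p = 0.078). *ATP4*, *ATP5* and *ATP14*, genes of the peripheral stalk, averaged between -0.29 and -0.09 at 80 μg/ml and between -0.74 and -0.54 at 40 μg/ml. *ATP7*, of the same stalk, was the exception at 40 μg/ml, with -0.24 at 80 μg/ml and 0.16 at 40 μg/ml. *ATP17*, the gene of subunit f, averaged -0.36 and -0.24, and *ATP1* 0.16 and -0.49, at 80 and 40 μg/ml.

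**Figure D3:**
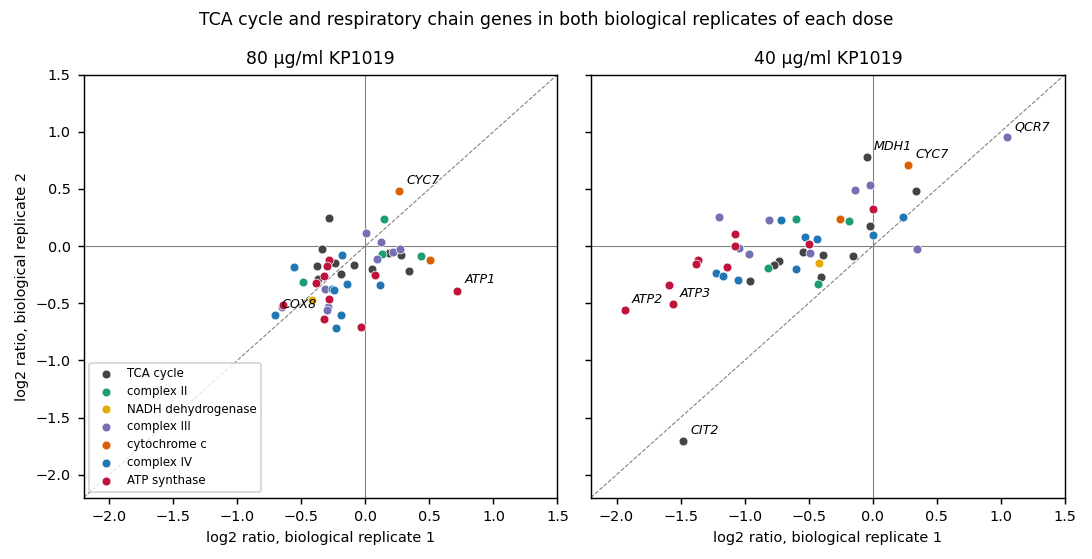
Log2 ratio of treated over untreated in biological replicate 1 (x axis) against replicate 2 (y axis) for the 46 genes, coloured by role, at 80 μg/ml (left) and 40 μg/ml (right), each point the average of a dye pair. The dashed line marks equal values. In the right panel most ATP synthase genes lie above the line, with *ATP2* at -1.94 in replicate 1 and -0.56 in replicate 2, whereas *CIT2* and *QCR7* lie near it.

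The replicates agreed to different degrees. Across the 46 genes, which are not independent of each other, the log2 ratios of both replicates correlated with r = 0.443 at 80 μg/ml and r = 0.696 at 40 μg/ml, and across all genes with r = 0.722 and 0.727. The dye pairs of 80 μg/ml agreed poorly for these genes, with r = 0.0454 in replicate 1 and 0.229 in replicate 2, against 0.898 in replicate 1 and 0.709 in replicate 2 of 40 μg/ml. Across all genes the dye pairs gave r = 0.406 and 0.661 in these replicates of 80 μg/ml, and 0.832 and 0.698 in those of 40 μg/ml. The array of replicate 1 of 80 μg/ml with treated cDNA in Cy3 held the highest single values of that dose, 1.71 for *ATP1*, 1.06 for *CYC1* and 1.01 for *LSC1*.

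Between the doses, none of the 46 genes passed the test of 80 minus 40 μg/ml, beside 0.0470% of all genes higher and 0.0939% lower. At an unadjusted p under 0.05, 2 of the 46 were higher and 4 lower, beside 9.82% and 11.1% of all genes. The differences furthest from 0 on each side were those of *CIT2*, at 1.41 (limma adjusted p = 0.094), and *QCR7*, at -0.92 (adjusted p = 0.14). Without replicate 1 of 40 μg/ml these differences were 1.52 for *CIT2* and -0.87 for *QCR7*. Without replicate 2 of that dose they were 1.30 and -0.97. *ACO1* and *COX5B* had negative ratios on all 4 arrays of 80 μg/ml and positive ratios on all 4 of 40 μg/ml, which is 2 of 46 genes beside 2.63% of all genes. Their differences, -0.74 for *ACO1* and -0.56 for *COX5B*, did not pass (adjusted p = 0.16 and 0.22). Values of *ATP2* and *ATP3* differed by 0.77 and 0.66, with adjusted p = 0.33 and 0.32.

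**Figure D4:**
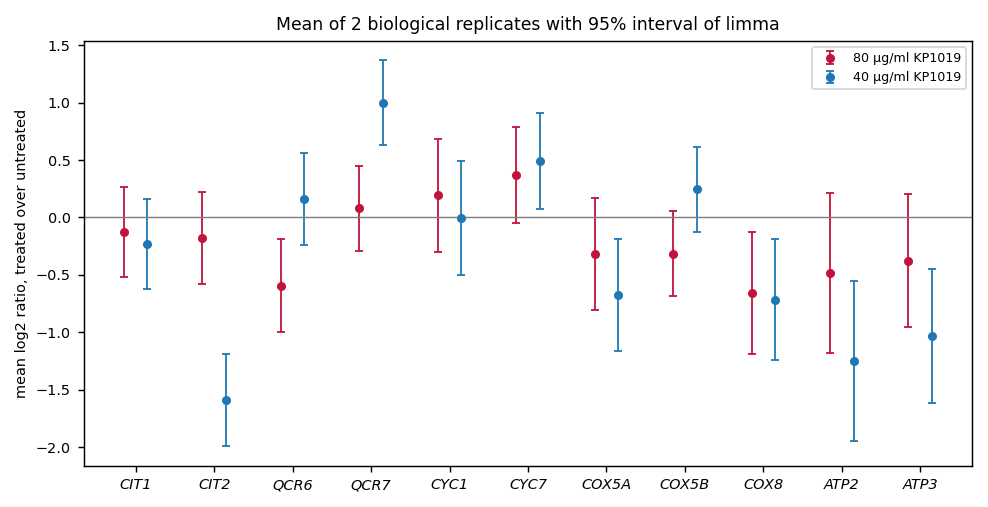
Mean log2 ratio of treated over untreated (y axis) for 11 of the genes, with the 95% interval of limma, at 80 μg/ml (red, left of each pair) and 40 μg/ml (blue); n = 2 biological replicates per dose. The intervals of *CIT2* and *QCR7* do not overlap between doses, with *CIT2* at -0.18 against -1.59 and *QCR7* at 0.08 against 1.00.

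Genes that work beside these 46 were counted in 6 lists, of which 97 of 98 genes had a spot. Means below 0 at 80 μg/ml were found for 23 of 33 assembly factors, 7 of 8 heme synthesis genes and 6 of 7 mitochondrially encoded genes. They were found for 9 of 15 regulators, 11 of 22 other TCA and pyruvate genes and 5 of 12 other donor and ATP synthase genes, beside 50.3% of all genes. At 40 μg/ml the counts were 20, 5, 0, 13, 15 and 5 in the same order, beside 51.1%. Of 22 other genes of the TCA cycle, the glyoxylate cycle and pyruvate entry, 1 was higher and 1 lower at 80 μg/ml, and 2 were higher and 3 lower at 40 μg/ml. Over all genes, 2.11% were higher and 1.41% lower at 80 μg/ml. The shares for 40 μg/ml were 13.0% higher and 10.3% lower. Of the 17 list genes that passed at 40 μg/ml, 11 passed whichever replicate of that dose was left out and 6 did not pass without replicate 1. *CIT3* and *PYC2*, the 2 that passed at 80 μg/ml, did not pass when either replicate of that dose was left out. *CIT3*, a further mitochondrial citrate synthase gene, rose at both doses, with a mean log2 ratio of 0.90 at 80 μg/ml (limma adjusted p = 0.027) and 0.79 at 40 μg/ml (adjusted p = 0.016), with all 8 arrays between 0.40 and 1.17. In untreated cells its spot was above the blanks on 2 of 4 arrays at each dose. Pyruvate carboxylase, which supplies oxaloacetate, comes from *PYC1* and *PYC2*. *PYC2* fell at 80 μg/ml (mean log2 ratio -0.79, adjusted p = 0.043). *PYC1* averaged 0.67 at 80 μg/ml (adjusted p = 0.16) and fell at 40 μg/ml (-0.87, adjusted p = 0.030). Without replicate 1 of 40 μg/ml *PYC1* was -0.44 and did not pass (adjusted p = 0.11). The difference of 1.54 between the doses for *PYC1* did not pass (adjusted p = 0.11). *LPD1* and *PDX1*, components of the pyruvate dehydrogenase complex, fell at 40 μg/ml (-0.59 and -0.88, adjusted p = 0.046 and 0.023), but did not pass without replicate 1 (-0.46 and -0.52, adjusted p = 0.11 and 0.067). *MPC3*, a pyruvate carrier subunit gene used in respiring cells, rose at 40 μg/ml by 1.67 ± 1.63 (SD, n = 2, adjusted p = 0.034), with 2.90 and 2.74 in replicate 1 and 0.94 and 0.10 in replicate 2, and did not pass without replicate 1 (0.52, adjusted p = 0.066).

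Of 12 other genes for electron donors, ATP synthase and its inhibitors, 0 passed at 80 μg/ml and 3 rose at 40 μg/ml, beside 13.0% of all genes. *NDE1*, the external NADH dehydrogenase, rose by 1.27 on the log2 scale (limma adjusted p = 0.011) and *CYB2*, the lactate dehydrogenase that feeds cytochrome c, by 1.31 (adjusted p = 0.013). Without replicate 1 these values were 0.85 and 0.82, and both passed (adjusted p = 0.0079 and 0.0097). *INH1*, the inhibitor of ATP hydrolysis by ATP synthase, rose by 0.55 (adjusted p = 0.043). Of 33 assembly factors of the respiratory complexes, 0 passed at 80 μg/ml. With 40 μg/ml, 4 rose (*SCO2*, *CBP4*, *SDH6* and *CYT2*, by 0.82 to 0.95 on the log2 scale) and *COX11*, a copper chaperone gene of complex IV, fell by 0.57. The share that rose, 4 of 33, is near the 13.0% of all genes, and *COX11* did not pass without replicate 1 (-0.47, adjusted p = 0.096). *CYT2* encodes the lyase that attaches heme to cytochrome c1, and *CBP4* a factor for complex III.

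Of 15 regulators, none passed at 80 μg/ml and 2 fell at 40 μg/ml, beside 10.3% of all genes. These were *MOT3*, a repressor of hypoxic genes, and *HXK2*, the hexokinase with a part in glucose repression (-0.72 and -0.68, limma adjusted p = 0.020 and 0.027). Without replicate 1 of 40 μg/ml *HXK2* was -0.56 and did not pass. *HAP4* averaged 0.04 at 80 μg/ml (limma adjusted p = 0.94) and -0.21 at 40 μg/ml (adjusted p = 0.42). Of 8 heme synthesis genes none passed at either dose. Of 7 mitochondrially encoded subunit genes, 2 were called higher at 40 μg/ml, beside 13.0% of all genes. These were *OLI1* and *ATP6*, of the membrane part of ATP synthase (1.58 and 0.58). However, no gene of this list was above the blanks in both channels of all arrays, and *ATP6* was above them in 4 of 16 channels.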

How the data were processed

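Foreground and background intensity of each spot in both channels was quantified by the authors in MagicTool and deposited without normalization, with a table of ratios, in which, set against the intensities, each score is a fold change of Cy5 over Cy3, with its sign, from total signal scaled by 1 factor per array. How the authors set this factor is not given in the sources used here. Mean intensities of 6688 features were corrected with normexp (offset 50) and normalized by loess within each array in R 4.3.3 with limma 3.58.1, with 85 blank and 23 control spots at weight 0. Arrays were turned to treated over untreated, and dye pairs were averaged to 1 value per biological replicate. Log2 ratios were fitted with 1 mean per dose (lmFit, eBayes, two-sided, 2 residual and 5.66 prior degrees of freedom). The labels name the replicates as biological samples. With 2 replicates per dose, the number of arrays limits precision, and p-values of single calls rest largely on the spread shared with other genes.

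The 46 genes, the 6 lists and the named genes (all 46, and list genes past the threshold) were chosen with earlier results of these data known. Gene names were matched to RefSeq locus tags for 5849 of 6388 genes. Calculations were checked on simulated data. Alternatives were median centring, other background corrections, total signal, scaling between arrays, the authors' ratios, a filter on dim spots, other thresholds, each dose fitted alone, each replicate left out and a replicate block.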

Additional observations from a re-analysis of the deposited data

Results flagged for a closer look

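In each dose, the 4 arrays of every gene were checked for 1 array that stood far from the others (Dixon's test). This met 6 of 92 sets of arrays. The test assumes 4 independent values, which the 2 dye pairs of a dose are not, so no rate for chance is given. At 80 μg/ml *LSC1* was 1.01 and *SDH3* was -0.74 on the array of replicate 1 with treated cDNA in Cy3, with the other arrays of *LSC1* between -0.33 and -0.13 and those of *SDH3* between -0.32 and -0.24. *SDH1* was 0.35 on the array of replicate 1 with treated cDNA in Cy5, with the others between -0.09 and -0.05. *COX5A* was -0.46 and *COX12* was 0.0054 on the array of replicate 2 with treated cDNA in Cy3, with the others between -0.29 and -0.25 for *COX5A* and between -0.19 and -0.17 for *COX12*. At 40 μg/ml *COX7* was -0.13 on the array of replicate 1 with treated cDNA in Cy5, with the others between 0.09 and 0.13.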

How the results depend on the processing

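Shares of all genes called in either direction stand in brackets after each count by limma. At 80 μg/ml the count of the 46 genes that passed was 0 [3.52%], and it was 8 [23.5%] with arrays scaled to 1 spread, 9 [22.2%] with each dose fitted alone, 3 [18.5%] by unadjusted p, and 0 to 9 [1.28% to 22.2%] with a replicate left out. At 40 μg/ml the count was 4 (1 higher and 3 lower) [23.3%], and it was 11 (1 and 10) [26.2%] with median centring, 2 [6.55%] with plain subtraction of background, 8 (1 and 7) [25.3%] with arrays scaled, 8 of 45 [31.9%] among genes above the blanks on all arrays, 9 [20.6%] with each dose fitted alone, 16 [38.4%] by unadjusted p, and 4 to 28 [16.9% to 47.9%] with a replicate left out. For 80 minus 40 μg/ml the count was 0 [0.141%], and it was 4 [9.35%] with arrays scaled and 0 to 21 [0.454% to 36.6%] with a replicate left out. The median at 80 μg/ml was -0.21, and it was -0.28 with median centring, -0.23 with total signal, -0.26 with arrays scaled, and -0.23 to -0.21 with a replicate left out. At 40 μg/ml it was -0.30, and it was -0.45 with median centring, -0.22 with arrays scaled, and -0.57 to -0.04 with a replicate left out. With the criteria of the methods lowered to 2-fold, 1 of the 46 genes met them at 40 μg/ml, and over all genes 167 did. At 80 μg/ml 0 of the 46 met them at 2-fold, and over all genes 95 did. In 1653 comparisons of single values, no called value changed sign, 4 calls were lost and 122 were gained. Fitting a dose alone and leaving out either replicate of the other dose are the same fit for that dose. The comparisons are therefore not all distinct, and some gained calls are counted more than once. The 4 lost calls were *ATP2* and *ATP3* at 40 μg/ml, with plain subtraction (-1.32 and -1.10, adjusted p = 0.075 and 0.076) and without replicate 1 of that dose.

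Same-numbered replicates of both doses share only a number, and their deviations correlated with r = -0.136. With the replicate block, 1 of the 46 genes (*CIT2*) and 440 of all genes passed for 80 minus 40 μg/ml. With crossed numbers, chosen after seeing the data, 2 of the 46 and 830 of all genes did.

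The fits that leave out a replicate assume that the lone replicate varies like the others. With 2 replicates per dose, a miss of the threshold does not show that a gene kept its level, and the cause of the wider spread in replicate 1 of 40 μg/ml was not tested.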
